A study of Rattus norvegicus with 12 samples.

Results

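The 9 genes described here were grouped as inhibitory interneuron and GABA/glycine transmission genes: Gad1, Gad2, Slc32a1, Slc6a5, Pax2, Pvalb, Calb2, Sst and Npy. Not all are particular to such cells, as given below for Pvalb and Calb2. The 9 genes were taken by name: a probe belonged to a gene where the gene name in the 12 array files equalled it. This gave 12 probes among 30367 probes (9 of 26214 gene names), with 2 probes each for Gad1, Slc6a5 and Npy and 1 for every other gene. The arrays held RNA of neuron-enriched cerebellar cultures from 1-day-old Sprague-Dawley rats, harvested at 16 days in vitro (DIV). All cultures received 0.001% dimethyl sulfoxide and were kept in 1% serum up to 8 DIV and without serum after that. The 6 control cultures received the solvent alone, and the 6 ACE cultures also received 1 µM acetamiprid, a neonicotinoid insecticide that acts on nicotinic acetylcholine receptors, from 2 DIV on. A replicate number stood for 1 culture lot from 1 litter, and each lot gave 1 control and 1 ACE array, so control versus ACE (CvA) was compared within 6 pairs. The nicotine and imidacloprid cultures of the study were not analysed here. Such cultures hold glia beside neurons, and the values are averages over all their cells.

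Glutamate decarboxylase, encoded by Gad1 and Gad2, makes GABA, and the vesicular transporter encoded by Slc32a1 loads GABA and glycine into synaptic vesicles. Slc6a5 encodes the neuronal glycine transporter GlyT2, which marks glycinergic neurons such as Golgi and Lugaro cells. In the cerebellum, Golgi, basket and stellate cells arise from Pax2-expressing precursors, while Purkinje cells are GABAergic projection neurons. Parvalbumin and calretinin (Pvalb and Calb2) are calcium buffers, whereas somatostatin and neuropeptide Y (Sst and Npy) are peptides that many inhibitory neurons release.

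Signals are given as log2 of the array's processed signal after quantile normalisation between the 12 arrays, and differences as ACE minus control on this scale with the standard error (SE). They can be set against each other within a probe but not between probes. The 75th percentile of the processed signal before scaling was 2814 ± 1054 in control and 2953 ± 872 in ACE arrays (SD, n = 6 each), and 75.4% to 91.0% of probes were well above background. On all 6 slides control RNA took place 1 and ACE RNA place 3, so place and exposure cannot be told apart. Among the markers of the labelled tissue, the granule cell gene Neurod1 and the Purkinje cell genes Calb1 and Pcp2 were well above background on all 12 arrays. The glutamate transporter of mature granule cells, Slc17a7, was so on 0 of 6 control and 2 of 6 ACE arrays.

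The probes of Gad1 and of Slc6a5 are shown because each gene had a second, dim probe, and those of Slc6a5 gave different differences. The first 30 of the 60 bases of each are shown. The coordinates are those of the array files, on the rat build rn4, and all 4 probes lie on the plus strand.
Gad1, first probe, chr3:52829951-52830010: caagtgtttttgaagacatgaaacccacac
Gad1, second probe, chr3:52813028-52813087: tggaacagattacacttaagaagatgcgag
Slc6a5, first probe, chr1:99793114-99793173: gcttattatatactgtgcattattcattta
Slc6a5, second probe, chr1:99786137-99786196: gatctggatcccgattatgttcgtgataaa

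Promoters are shown for the 4 transmitter genes, whose signals varied together between culture lots, and for Sst. Each holds 250 bases before and 50 after the start in RefSeq (build GRCr8, not the build of the array files), which gave a promoter for 8 of the 9 genes; Calb2 had no entry. Capitals mark a GC box (GGGCGG or its reverse complement), a cyclic AMP response element (CRE, TGACGTCA) or a TATA sequence (TATAAA, on the gene's strand only).
Gad1, chr3:75777202-75777501, plus strand: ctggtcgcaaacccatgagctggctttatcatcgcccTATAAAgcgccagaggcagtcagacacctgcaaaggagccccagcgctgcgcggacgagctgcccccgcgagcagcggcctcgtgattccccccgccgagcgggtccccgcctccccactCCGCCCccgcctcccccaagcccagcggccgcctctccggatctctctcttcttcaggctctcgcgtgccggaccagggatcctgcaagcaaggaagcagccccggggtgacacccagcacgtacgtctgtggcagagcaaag
Gad2, chr17:89671468-89671767, plus strand: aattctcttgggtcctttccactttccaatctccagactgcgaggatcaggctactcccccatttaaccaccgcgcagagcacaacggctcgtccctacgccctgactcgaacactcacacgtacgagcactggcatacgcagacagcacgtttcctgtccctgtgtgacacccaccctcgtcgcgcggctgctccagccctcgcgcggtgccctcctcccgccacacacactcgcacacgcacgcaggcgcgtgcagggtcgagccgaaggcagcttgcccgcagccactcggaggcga
Slc32a1, chr3:167686995-167687294, plus strand: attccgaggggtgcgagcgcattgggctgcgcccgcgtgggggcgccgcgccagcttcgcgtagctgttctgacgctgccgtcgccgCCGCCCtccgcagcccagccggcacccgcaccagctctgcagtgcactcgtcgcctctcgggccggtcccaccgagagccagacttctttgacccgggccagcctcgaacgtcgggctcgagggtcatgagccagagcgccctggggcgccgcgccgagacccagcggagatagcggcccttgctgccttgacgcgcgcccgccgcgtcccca
Slc6a5, chr1:108781303-108781602, plus strand: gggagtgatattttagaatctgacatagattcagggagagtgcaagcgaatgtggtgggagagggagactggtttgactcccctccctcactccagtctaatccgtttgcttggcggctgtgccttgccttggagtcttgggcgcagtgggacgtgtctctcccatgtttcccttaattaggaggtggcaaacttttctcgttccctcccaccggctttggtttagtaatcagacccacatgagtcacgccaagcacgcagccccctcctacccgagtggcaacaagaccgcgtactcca
Sst, chr11:90461296-90461595, plus strand: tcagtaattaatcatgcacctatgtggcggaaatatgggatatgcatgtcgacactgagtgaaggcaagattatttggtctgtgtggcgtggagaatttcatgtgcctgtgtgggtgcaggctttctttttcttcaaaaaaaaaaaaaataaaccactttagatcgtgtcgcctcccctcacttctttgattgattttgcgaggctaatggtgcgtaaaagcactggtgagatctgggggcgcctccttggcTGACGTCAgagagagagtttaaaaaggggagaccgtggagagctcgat
None of these motifs was common to the 4 transmitter genes: Gad1 and Slc32a1 held a GC box, Gad2 and Slc6a5 did not, and TATAAA in Gad1 lay 213 bases before the start. A GC box was present in 33.1% of 33469 promoters, so its presence in 5 of 8 (also Pax2, Pvalb and Npy) is only a description. The CRE was present in 1.83% of all promoters and, among the 8, only in Sst, beginning at base 3 of the annotated transcript. GC content ran from 45.7% in Sst to 73.7% in Slc32a1, against a median of 51.7% over all promoters.

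For CvA, 7 of the 9 genes were higher in ACE by their first probe, and Pax2 and Pvalb were lower. The control and ACE ranges overlapped for 12 of 12 probes. Lots widened these ranges, so overlap does not bear on differences within pairs, and its share over all probes was not counted. The differences of the first probes lay between -0.18 for Pax2 and 0.33 for Slc6a5, with a median of 0.14. Slc6a5 passed an unadjusted p of 0.05 in limma, which made 1 of 12 probes, beside 16.6% of all 23796 tested probes in either direction. None of the 12 (0) passed a Benjamini-Hochberg adjusted p of 0.05, and neither did any other probe (0%). Slc6a5 was also the only gene higher in ACE in 6 of 6 pairs, beside 4.76% of all probes, and 0 of 12 probes were lower in 6 of 6 pairs, beside 6.93%. Of all probes, 47.8% were higher in ACE, and the median absolute difference was 0.0615.

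**Figure D1:**
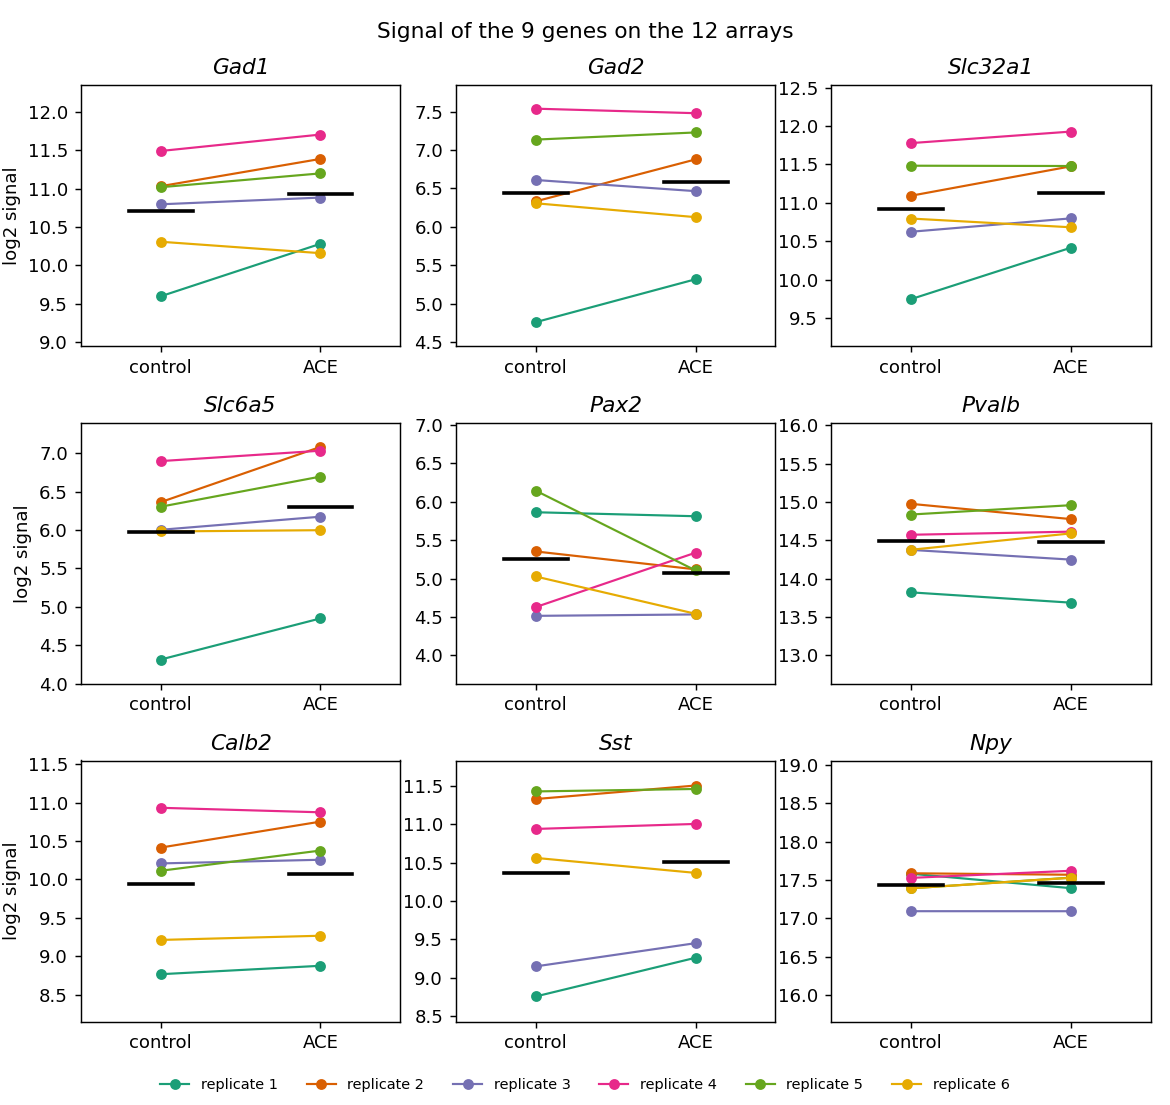
Log2 signal (vertical axis, the same span of log2 units in each panel) of the first probe of each gene in control and ACE cultures; each line joins the 2 arrays of 1 culture lot, and black bars are the means of 6. The lines differ more in height than in slope, and only for Slc6a5 do all 6 slope upward.

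The GABA-synthesising enzymes were higher in ACE on average, by amounts that did not exceed the spread between pairs. Gad1, whose enzyme is found throughout the neuron, ran from 9.60 over a median of 10.91 to 11.49 in control and from 10.16 over 11.04 to 11.71 in ACE cultures. It was higher in 5 of 6 pairs, most in replicate 1 (0.68), while replicate 6 went the other way (-0.15). The difference was 0.23 ± 0.10 (SE, n = 6 pairs), or 1.17-fold, with a limma adjusted p = 0.324. It was 0.14 without replicate 1, and 0.30 without replicate 6, where it passed the unadjusted threshold, as it did in 2 of 9 other settings (normexp and an intensity trend). Its second probe, well above background on 5 arrays of each group, ran from 2.65 to 5.07 in control and from 2.93 to 6.12 in ACE. The difference there was 0.21 ± 0.22, with pairs between -0.70 and 1.05, so this dim probe varied far more than the first. Gad2, whose protein sits at nerve terminals and is measured at chr17:96321562-96321621, ran from 4.76 over 6.47 to 7.54 in control and from 5.32 over 6.67 to 7.48 in ACE. Only 3 of 6 pairs were higher, replicates 1 and 2 by 0.56 and 0.55 and replicate 5 by 0.09, and the other 3 were lower. The difference was 0.14 ± 0.12 (limma adjusted p = 0.597), with a 95% interval from -0.16 to 0.43. It was 0.051 without replicate 1 and 0.054 without replicate 2, 0.027 with scaling to the 75th percentile and 0.042 with normexp.

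The vesicular transporter followed Gad1. Slc32a1 (chr3:149347048-149347107) ran from 9.74 over a median of 10.94 to 11.78 in control and from 10.41 over 11.14 to 11.93 in ACE. Replicates 1 to 4 were higher in ACE, replicate 5 differed by -0.0039 and replicate 6 was lower. The difference was 0.21 ± 0.10 (limma adjusted p = 0.359). It was 0.12 without replicate 1, and 0.27 without replicate 6, where it passed the unadjusted threshold.

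The glycine transporter Slc6a5 had the largest difference of the 9 genes by first probes in the main fit, but not in every other setting. Its first probe ran from 4.31 over 6.15 to 6.90 in control and from 4.85 over 6.43 to 7.08 in ACE. Every pair was higher in ACE, from 0.017 in replicate 6 to 0.72 in replicate 2, and the groups overlapped, with replicate 1 far below the other lots in each. The difference was 0.33 ± 0.098, or 1.26-fold (95% interval 0.09 to 0.56, limma adjusted p = 0.206). An exact two-sided sign-flip test over the 6 pairs gave p = 0.03125, the smallest it can give. The second Slc6a5 probe stood well above background on 2 arrays of control and 3 of ACE cultures, and its difference was -0.0042 ± 0.11 with 4 of 6 pairs higher. The first probe missed the unadjusted threshold with scaling to the 75th percentile (difference 0.22) and within the scan batch of replicates 4 to 6 (0.18), and its difference was smallest with normexp background correction (0.16). Pax2 differed by more with scaling to the 75th percentile (-0.30) and in that batch (-0.27). With normexp, Gad1 (0.20) and Slc32a1 (0.18) did.

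The differences of these 4 genes were largest in replicates 1 and 2. Within the scan batch of replicates 4 to 6, the mean difference was 0.08 for Gad1, -0.05 for Gad2 and 0.01 for Slc32a1. Replicates 1, 2 and 3 were each scanned in a batch of their own, so no error can be given within those. The mean of 9 pan-neuronal probes was 9.52 in control and 9.69 in ACE for replicate 1, 9.84 and 10.03 for replicate 2 and 9.63 and 9.78 for replicate 3. It was 10.24 and 10.25 for replicate 4, 9.99 and 9.94 for replicate 5 and 9.61 and 9.67 for replicate 6. It was thus higher in ACE in 5 of 6 lots. The mean of 9 granule cell probes was 7.45 in control and 7.81 in ACE for replicate 1 and 8.58 and 8.81 for replicate 2. It was lower in ACE in replicates 3 to 6, so it was higher in ACE in the lots where the differences of the 4 genes were largest. The mean of 12 Purkinje cell probes, another GABAergic cell, stayed between 8.77 and 9.31 in control and between 8.56 and 9.24 in ACE, and 5 of the 12 were higher in ACE. The part of neuron content or granule cell content in the differences was not tested, and in such bulk samples fewer cells of a type and less RNA per cell cannot be told apart.

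**Figure D2:**
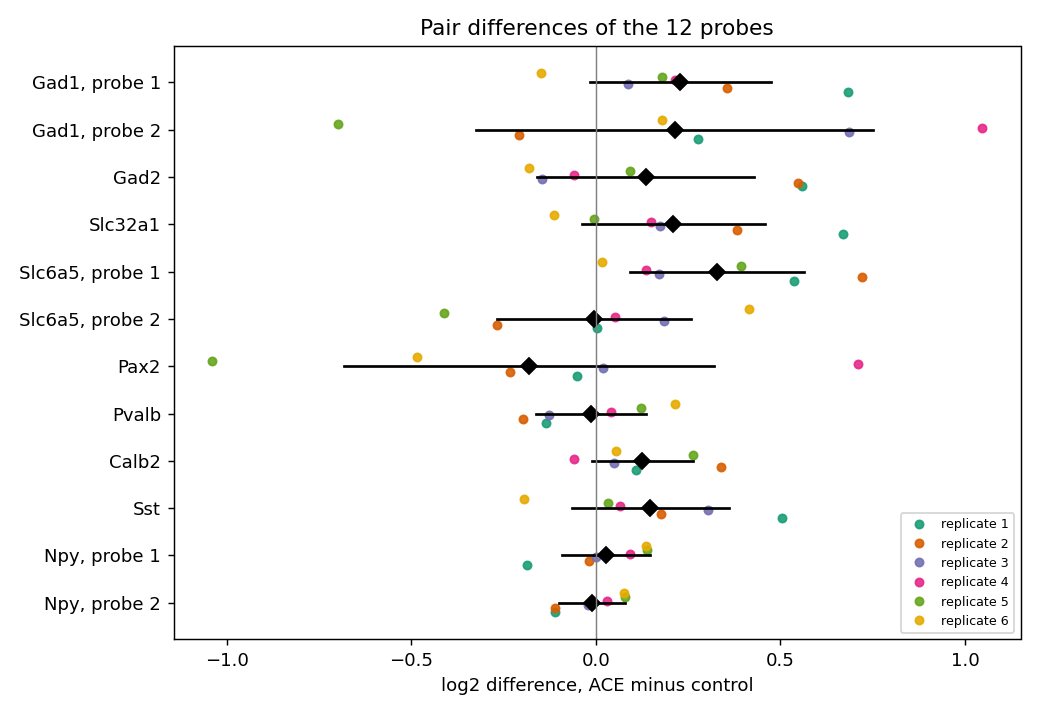
Log2 difference, ACE minus control (horizontal axis), of each of the 12 probes: coloured points are the 6 pairs, diamonds the limma estimate and black lines its 95% interval. Only the interval of the first Slc6a5 probe, from 0.09 to 0.56, does not reach 0.

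Pax2, the transcription factor of interneuron precursors (chr1:249894567-249894626), was the least even of the genes. It ran from 4.51 over a median of 5.19 to 6.15 in control and from 4.53 over 5.11 to 5.81 in ACE, and it was well above background on 5 arrays of each group. Its pair differences went from -1.04 in replicate 5 to 0.71 in replicate 4, and 2 of 6 were higher in ACE. The difference was -0.18 ± 0.21 (limma adjusted p = 0.683), and its 95% interval from -0.68 to 0.32 was the widest of the first probes. It was -0.36 without replicate 4 and -0.0088 without replicate 5.

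The calcium-buffer genes were measured more tightly. Pvalb (chr7:116115036-116115095, minus strand) ran from 13.82 over 14.47 to 14.98 in control and from 13.69 over 14.60 to 14.96 in ACE. Replicates 1 to 3 were lower in ACE and replicates 4 to 6 higher, by at most 0.21 either way. The difference was -0.014 ± 0.062, with a 95% interval from -0.16 to 0.14. Pvalb is also a gene of fast skeletal muscle, and markers of that tissue were present in some cultures: the mean of 20 muscle probes ran from 7.60 to 10.92 in control and from 7.59 to 9.76 in ACE. It was highest in the control culture of replicate 2, 10.92 against 8.21 in ACE, where Pvalb was 14.98 and 14.78. In replicate 6 it was 8.91 in control and 7.59 in ACE, where Pvalb was 14.38 and 14.59. The part of muscle RNA in the Pvalb signal was not tested.

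Calb2 (chr19:40023073-40023132, minus strand), which in the cerebellum also marks granule and unipolar brush cells, ran from 8.77 over 10.16 to 10.93 in control and from 8.88 over 10.32 to 10.87 in ACE. It was higher in ACE in 5 of 6 pairs, with replicate 4 the exception. The difference was 0.13 ± 0.057 (95% interval -0.011 to 0.26, limma adjusted p = 0.329), so it did not pass. It passed the unadjusted threshold in 3 of 9 other settings (normexp, the deposited values and an intensity trend) and without replicate 4 (0.16), and was 0.083 without replicate 2 and 0.098 without replicate 5.

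Neither peptide gene passed the unadjusted threshold over all 6 pairs. Sst (chr11:79126157-79126216) ran from 8.76 over a median of 10.75 to 11.43 in control and from 9.26 over 10.69 to 11.5048 in ACE. It was higher in 5 of 6 pairs, most in replicate 1 (0.50), and lower in replicate 6 (-0.20). The difference was 0.15 ± 0.089 (limma adjusted p = 0.441), and within the scan batch of replicates 4 to 6 it was -0.03. It was 0.076 without replicate 1, and 0.22 without replicate 6, where it passed the unadjusted threshold. Npy, by its first probe, had the smallest range of the 9 genes. This probe (chr4:78045125-78045184, 10 spots on each array) ran from 17.09 over 17.46 to 17.59 in control and from 17.09 over 17.53 to 17.62 in ACE. Its second probe (chr4:78043176-78043235) ran from 14.48 to 16.01 and from 14.46 to 15.90. The differences were 0.027 ± 0.049 and -0.0097 ± 0.037, with 95% intervals from -0.09 to 0.15 and from -0.10 to 0.08. By both Npy probes, replicates 1 to 3 were lower in ACE and replicates 4 to 6 higher, as for Pvalb. In the scan batch of replicates 4 to 6, the first probe differed by 0.12 and passed the unadjusted threshold.

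**Figure D3:**
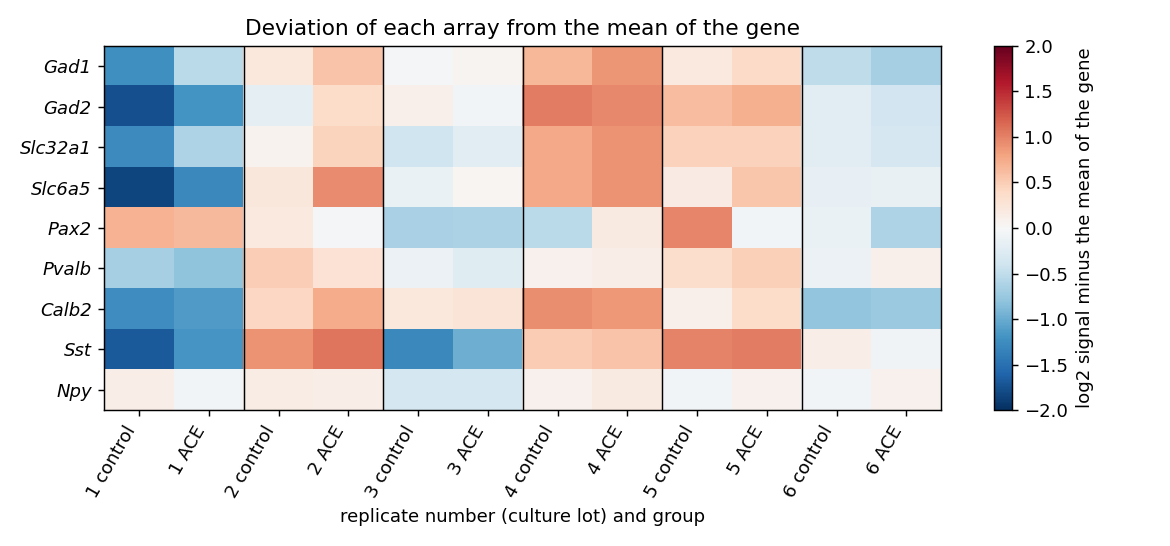
Log2 signal of the first probe of each gene on each array minus the mean of that gene over 12 arrays (colour), with arrays ordered by replicate number (culture lot). Columns of the same lot resemble each other: the 4 transmitter genes and Calb2 are lowest or near lowest in replicate 1 and high in replicate 4, while Pax2 is high in replicate 1 and Npy varies little.

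Culture lots differed far more than exposure groups. Each lot was also 1 slide, replicates 1 to 3 were each 1 scan batch and replicate 1 alone was read with another software version, so that these cannot be told apart from the lot. The lots took 93.5% of the sum of squares at the median of the 9 genes, from 72.9% for Pax2 to 98.4% for Calb2, beside a median of 92.0% over all tested probes. Replicate 1 was the lowest lot for 7 of the 9 genes in control and 6 of 9 in ACE, and replicate 4 the highest for 5 of 9 in each group. Between these lots the mean of control and ACE went from 4.58 to 6.97 for Slc6a5, from 5.04 to 7.51 for Gad2, from 9.94 to 11.60 for Gad1 and from 10.08 to 11.85 for Slc32a1. The 12-array range was 2.77 for Slc6a5 and 2.78 for Gad2, above that of 93.8% and 93.9% of probes, whereas the range for Npy was 0.53 by its first probe, above that of 21.1%, and 1.55 by its second, above that of 75.9%.

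Over the 6 lot means, the 4 transmitter genes varied together, and Gad1 and Slc6a5 put the lots in the same order. Pearson's r of the 6 gene pairs was 0.92 to 0.96 (exact two-sided permutation p = 0.0014 to 0.0111, Benjamini-Hochberg adjusted 0.0083 to 0.0111), and 0.0014 is the smallest p that 6 lots can give. Spearman's rho was 0.89 to 1.00 (exact permutation p = 0.0028 to 0.0333, adjusted 0.0167 to 0.0333). The adjustment covered only these 6 pairs of genes. Every probe shared the lots and slides, so these p do not set the 4 genes apart. The 2 lots farthest from the median of the pair's first gene, not the same for every pair, were then left out. Over the 4 lots kept, r was 0.59 for Gad2 with Slc6a5 and 0.79 to 0.96 for the other pairs of genes. Other genes shared the pattern: r with the 4 was 0.88 to 0.99 for Calb2, 0.75 to 0.90 for Pvalb and 0.70 to 0.85 for Sst. For Npy, by its first probe, r was lower, 0.10 to 0.37. For the means of the granule cell, pan-neuronal and Purkinje cell markers, r was 0.90 to 0.98, 0.80 to 0.94 and 0.53 to 0.80. Without replicate 1, these marker means gave 0.68 to 0.96, 0.93 to 0.98 and 0.92 to 0.97 over 5 lots. Pax2 had r of -0.15 to -0.42 with the 4 genes, but this rested on replicate 1, without which it was 0.41 to 0.62 over 5 lots. The granule cell marker mean was 7.45 in control replicate 1 and 8.71 in control replicate 4, and the part of cell makeup in the lot differences was not tested.

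Genes near to a member in their pattern over the 12 arrays were sought among 14686 probes that were well above background on all of them and had a gene symbol other than a provisional or accession-like name. Among them were Bsn (r = 0.990) and Dusp26 (0.989) for Slc6a5, Dnajc6 (0.985) for Gad2, Cplx1 (0.982) and Neurod2 (0.981) for Slc32a1, and KIFC2 (0.981) and Dync1i1 (0.980) for Gad1. Bsn encodes a scaffold of the presynaptic active zone and Cplx1 a regulator of vesicle release. Calb2 was nearest to Adcyap1 (0.983) and Sgsm1 (0.980), and Sst to Tfap2a (0.959), a factor of the cerebellar GABAergic lineage, and Car4 (0.951). Pvalb was nearest to Ptgr1 (0.960) and Ppp1r14c (0.959). Npy was nearest to Kdsr (0.934) and Rnf126 (0.925) by its first probe and to Pdxp and Atp5g3 (0.985 each) by its second. These values describe 12 arrays that share 6 lots, and carry no p.

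Around the 9 genes, 7 lists of other genes of inhibitory transmission and interneurons held 48 genes with 64 tested probes. Of these, 4 were higher and 6 lower in ACE at an unadjusted limma p of 0.05, beside 6.90% and 9.73% of all probes, and 0 passed the adjusted threshold. Their median difference was -0.0006, beside -0.0050 over all probes.

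Of the glycine receptor genes, Glra1 and Glra2 were among those lower in ACE, and Glrb did not pass. Glra1, the alpha subunit of adult synaptic glycine receptors, ran from 6.69 over 6.81 to 7.91 in control and from 6.39 over 6.46 to 7.68 in ACE. It was lower in all 6 pairs, by -0.21 to -0.39, and the difference was -0.29 ± 0.033 (limma adjusted p = 0.141, place 9 of 23796 by p). Glra2, the subunit of immature receptors, ran from 13.43 over 14.33 to 14.70 in control and from 13.25 over 13.97 to 14.47 in ACE. It too was lower in all 6 pairs, and the difference was -0.31 ± 0.062 (limma adjusted p = 0.143). The groups of both still overlapped. Within the scan batch of replicates 4 to 6, their differences were -0.34 and -0.39. The shared beta subunit Glrb differed by -0.13 with 3 of 6 pairs higher, and Glra3 was well above background on 0 of 12 arrays.

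Among the other receptor and postsynaptic genes, the probes of 1 gene disagreed. Nlgn2, a postsynaptic adhesion protein of inhibitory synapses, was higher in 6 of 6 pairs by 1 probe (0.27 ± 0.061, limma adjusted p = 0.157) and lower in 5 of 6 by the other (-0.19 ± 0.058, limma adjusted p = 0.210). Gephyrin (Gphn) and the GABA-B receptor genes Gabbr1 and Gabbr2 did not pass.

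Of 8 uptake probes, that of Slc6a12, a betaine and GABA transporter, was lower in ACE in 6 of 6 pairs (-0.18 ± 0.037, limma adjusted p = 0.147). The glial glycine transporter Slc6a9 differed by 0.17 (limma adjusted p = 0.290) and -0.06 by its 2 probes. Of 9 probes of GABA and glycine metabolism, Glul, the glutamine synthetase of astrocytes, was lower in 6 of 6 pairs (-0.13), and Aldh5a1, which completes GABA breakdown, was higher in 6 of 6 by 1 probe (0.10) and not by its other (-0.06). The chloride transporters, which set whether GABA excites or inhibits, gave 0 calls in 9 probes. The neuronal exporter Slc12a5 differed by 0.19 ± 0.090 (limma adjusted p = 0.351), with replicates ranging from -0.14 to 0.58.

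**Figure D4:**
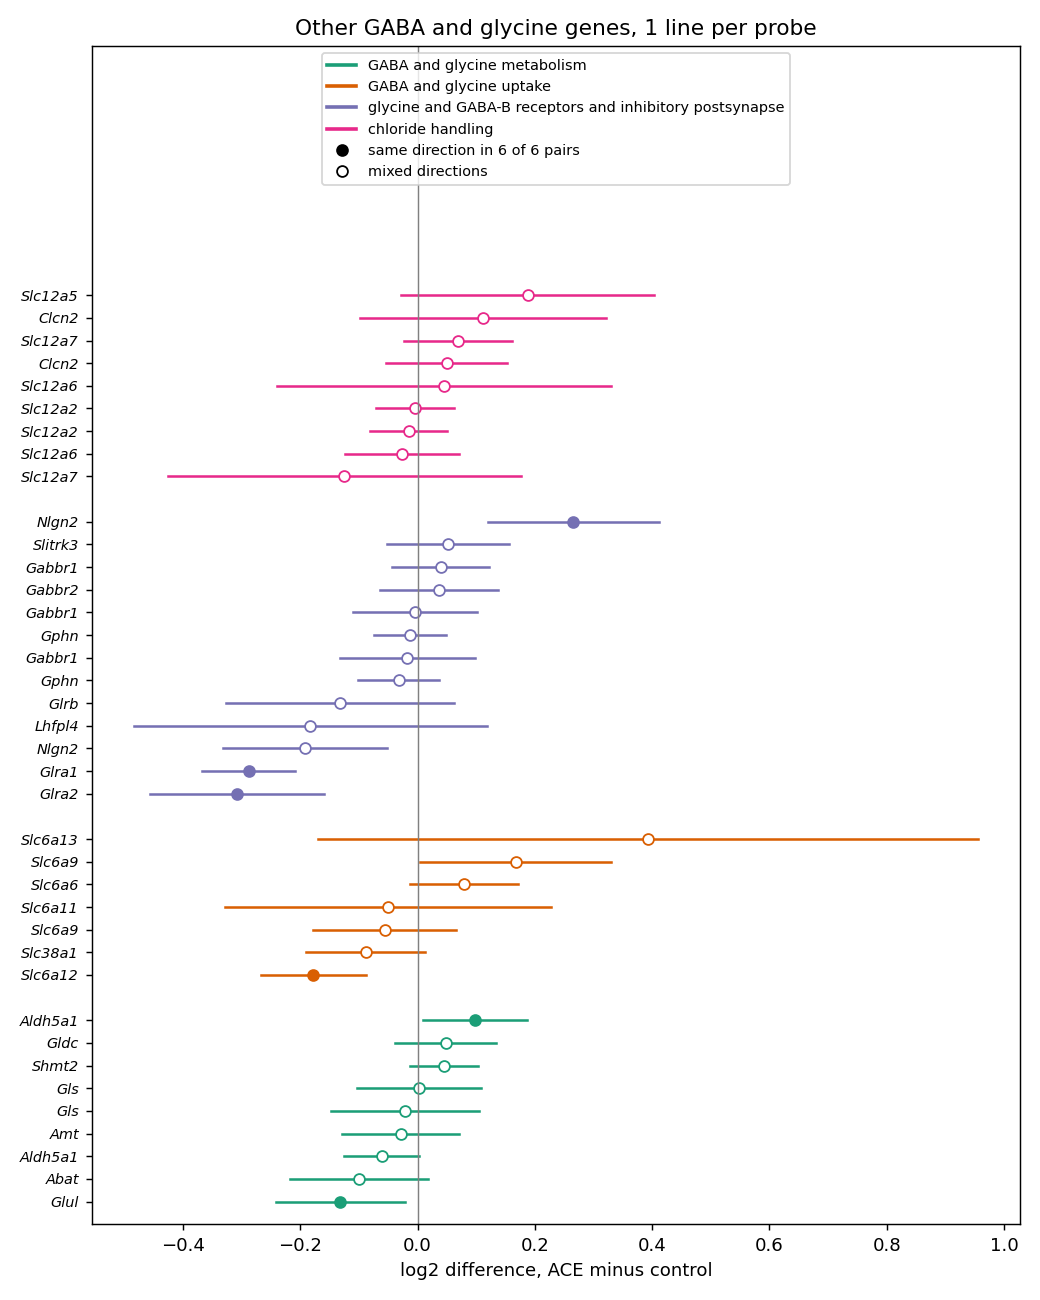
Log2 difference, ACE minus control (horizontal axis), with its 95% limma interval for tested probes of 4 lists of inhibitory transmission genes, 1 line per probe; filled points had the same direction in 6 of 6 pairs. Glra1 and Glra2 lie lowest among the receptor probes, and genes with more than 1 probe, such as Nlgn2, can fall on both sides of 0.

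The 7 tested probes of cerebellar GABAergic lineage factors, such as Tfap2a and Tfap2b, gave 0 calls and a median difference of 0.06, which was -0.06 without replicate 5; Ptf1a was well above background on 3 control and 4 ACE arrays. The 3 tested probes of forebrain interneuron factors all had lower means in ACE, and that of Nkx2-1 passed the unadjusted threshold (-0.14, limma adjusted p = 0.235, lower in 5 of 6 pairs). The 12 tested probes of other interneuron peptides and markers (Cck, Penk, Tac1, Reln, Kit and others) gave 0 calls and a median of 0.05, and Vip was well above background on 2 arrays of each group. Over other cell types, calls at an unadjusted p of 0.05 were 2 higher and 0 lower of 9 granule cell probes, 0 and 2 of 12 Purkinje cell probes, 0 and 1 of 15 astrocyte probes, 2 and 1 of 14 oligodendrocyte probes and 3 and 1 of 12 microglia probes. Their medians were -0.02, -0.05, -0.07, 0.002 and 0.10, the last being 0.01 without replicate 1. Of 9 pan-neuronal probes, 1 was called higher and 0 lower, 8 were higher in ACE, and the median was 0.05. Over all probes, 6.90% were called higher and 9.73% lower. Of 20 skeletal muscle probes, 1 was called higher and 3 lower, and 19 were lower in ACE, with a median of -0.42, which was -0.16 without replicate 2.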

How the data were processed

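Total RNA of the 12 cultures was labelled with Cy3 and hybridised to 1-colour rat oligonucleotide arrays. Per the file headers, the authors took the intensity of every spot from the scans by Agilent Feature Extraction (11.0.1.1 for both replicate 1 arrays, 11.5.1.1 for the remaining 10), which removed background and spatial trends but scaled no array to another. A second deposited source, log2 values quantile normalised and centred per probe by the authors, served as an alternative here (correlation with the values computed here 0.997 to 0.999 per array). Control spots were left out, outlier spots were set to missing (447 probe values), and 0 spots were saturated. The log2 processed signal was quantile normalised over the 12 arrays, and replicate spots were averaged.

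Following the study's filter, probes above the 20th percentile of the array on at least 7 of 12 arrays and with at least 4 complete pairs were tested, which left 23796 (23580 with 6 pairs). All 12 probes of the 9 genes passed. CvA was tested with limma 3.58.1 in R 4.3.3 (lmFit and eBayes, two-sided) with the replicate number as a block and Benjamini-Hochberg adjustment over every tested probe. The study prepared the control and ACE cultures of a lot from 1 litter, and arrays with the same number deviated from their group means together (r 0.449 to 0.912, against -0.439 to 0.390 for different numbers). A single gene was also tested by exact sign-flip over its 6 pairs. The number of arrays limits the precision.

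The members and all gene lists were chosen with earlier results of these data known. From a list, the probes named were those with the largest differences (up to 3 per direction) among those at an unadjusted p under 0.05, with the same direction in all pairs and at least 3 arrays well above background in the higher group. Other list genes are named after their values were seen, and some genes that the rules gave are not reported here. The first probe of a gene is the one well above background on more arrays, or brighter. The gene names of 3710 spots differed between the array files, 0 of them members. A probe's exon or UTR was not determined, as no annotation of rn4 was used here. The alternatives were a fit without the block, scaling to the 75th percentile, normexp background correction (offset 50), the deposited log2 values, no filter, well above background on 12 arrays, an intensity trend, the signed-rank test, each pair left out and the scan batch of replicates 4 to 6. The calling step was tested on simulated data. Figures were drawn with matplotlib in Python.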

Additional observations from a re-analysis of the deposited data

Results flagged for a closer look

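Of 24 groups of 6 arrays examined for a single distant value (12 probes in control and ACE), 2 held one by Dixon's ratio at its 95% critical value, where chance gives about 5%. Both belong to Slc6a5 and to replicate 1, in opposite directions. By its first probe, the control culture of replicate 1 was at 4.313 while the other 5 lay between 5.981 and 6.898. By the dim second probe, the ACE culture of replicate 1 was at 4.911 while the others lay between 3.49 and 3.95. Without replicate 1, the difference of the first Slc6a5 probe was 0.29 and still passed the unadjusted limma threshold.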

How the results depend on the processing

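The count of probes at an adjusted p under 0.05 was 0 under every alternative run. Without the replicate block, the count at an unadjusted p under 0.05 was 81 in place of 3956, and leaving out a pair gave 2810 to 4161; without the block Slc6a5, Glra1 and Glra2 did not pass that threshold. Slc6a5 passed it in 6 of the 9 other settings and with each pair left out (0.25 to 0.39). Alternatives for the number of genes higher in ACE (6 to 8 of 9), for the lists and for the genes named from them were chosen after seeing the data.

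Several directions changed and other values moved. With the 75th percentile shift, Npy was at -0.0061, the chloride list median at -0.0062 and that of other interneuron markers at 0.00425. With normexp, the second probes of Slc6a5 and Npy were at 0.015 and 0.011, and those list medians at 0.0145 and 0.0104. The second Slc6a5 probe was at 0.0059 with the deposited values, 0.0041 in the signed-rank test and 0.018 in the scan batch of replicates 4 to 6. In that batch Gad2 was at -0.049, Sst at -0.033, Pvalb at 0.13 and the second Npy probe at 0.062. With a pair left out, the second Slc6a5 probe ran from -0.088 to 0.077, Pvalb from -0.060 to 0.023, the second Npy probe from -0.028 to 0.011 and the chloride list from -0.0086 to 0.051. The median of the GABAergic lineage list was -0.065 without replicate 5, and in the scan batch those of the pan-neuronal and microglia lists were -0.032 and -0.0085; the uptake, granule, Purkinje, oligodendrocyte, unipolar brush cell and meningeal medians also changed sign under at least 1 setting. The cause was not tested.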
